A study of Mus musculus with 32 samples.

Results

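Motor neurons of the spinal cord release acetylcholine onto muscle, and the 8 genes described here give them that identity. They are Chat, Slc5a7 and Slc18a3 (synthesis and storage of acetylcholine), Ache and Prima1 (its breakdown), and Mnx1, Isl1 and Isl2 (transcription factors). They were chosen by name for these roles, and all 8 were found among the 42524 genes of the deposited count table. RNA came from spinal cord of 32 mice in 8 groups of 4, each group being WT or G93A, untreated or given OKN-007, and labelled 90 days or 155 days. G93A mice carry the human SOD1 gene with the G93A mutation, as the line B6-Tg(SOD1-G93A)1Gur on C57BL/6J, a model of amyotrophic lateral sclerosis in which the human SOD1 promoter drives the transgene in neurons and other cells alike. WT mice were littermates without the transgene, and OKN-007, a nitrone compound, was given in drinking water. The methods of the study give 95 days of age, not 90, for the earlier time. Neither the dose nor the level of cord is stated for the sequenced mice themselves in the sources used here. In the study, the cohorts killed at 95 and 155 days received the higher of its doses, and only females were used at that dose. Its experimental mice as a whole were described as mostly female.

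In a cholinergic terminal, the enzyme choline acetyltransferase (Chat) joins choline to acetyl-CoA, the high-affinity choline transporter (Slc5a7) brings the choline in, and the vesicular acetylcholine transporter (Slc18a3) loads vesicles. Acetylcholinesterase (Ache) ends the signal, and Prima1 is the membrane anchor that holds this enzyme on neurons. Mnx1, Isl1 and Isl2 are homeodomain factors that set motor neuron fate in the embryo and are still expressed in adult motor neurons. None of the 8 is exclusive to somatic motor neurons: Chat, Slc5a7 and Slc18a3 also mark preganglionic neurons and the cholinergic V0c interneurons, Ache and Prima1 are made by many neurons, and Isl1 is also expressed in sensory and dorsal horn neurons.

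Slc18a3 lies inside the Chat locus, on the same strand, an arrangement known as the cholinergic gene locus. In GENCODE M21, on GRCm38, Chat spans chr14:32408203-32465989 and Slc18a3 chr14:32462438-32464850, both on the minus strand, and their exons share 0 bases. Slc5a7 is at chr17:54273590-54299034 (minus), Ache at chr5:137287519-137294466 (plus), Prima1 at chr12:103196908-103242150 (minus), Mnx1 at chr5:29473034-29478470 (minus), Isl1 at chr13:116298281-116309689 (minus) and Isl2 at chr9:55538672-55546180 (plus). Ache shares 98 exonic bases with Gm42456 on the opposite strand. The libraries were made with a kit that keeps strand, but the strand setting of the counting is not given in the sources used here, so reads in those bases may come from either gene.

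RefSeq promoter windows (GRCm38.p6, 250 bases before to 50 bases after the annotated start) were found for all 8 genes. The 5-base core of the cyclic AMP response element, TGACG read on either strand, was in 4 of the 8 windows, those of Chat, Slc18a3, Isl1 and Isl2, against 20.8% of all 32851 windows. The 200 bases before the start of these 4 genes are shown because they are the members that share this element, with each match in capitals.

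Chat (chr14:32465910-32466109, minus): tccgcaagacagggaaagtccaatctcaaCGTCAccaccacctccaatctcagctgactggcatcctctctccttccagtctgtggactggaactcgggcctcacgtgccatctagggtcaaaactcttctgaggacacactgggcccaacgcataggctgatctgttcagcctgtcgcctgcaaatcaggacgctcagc
Slc18a3 (chr14:32464851-32465050, minus): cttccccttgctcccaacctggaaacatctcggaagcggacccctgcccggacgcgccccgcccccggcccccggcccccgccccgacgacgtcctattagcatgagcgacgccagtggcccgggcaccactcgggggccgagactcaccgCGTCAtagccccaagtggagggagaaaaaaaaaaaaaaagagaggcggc
Isl1 (chr13:116309689-116309888, minus): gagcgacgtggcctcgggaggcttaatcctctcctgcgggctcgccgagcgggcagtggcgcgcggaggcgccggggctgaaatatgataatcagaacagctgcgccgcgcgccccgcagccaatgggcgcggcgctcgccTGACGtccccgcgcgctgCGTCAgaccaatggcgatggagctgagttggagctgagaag
Isl2 (chr9:55540949-55541148, plus): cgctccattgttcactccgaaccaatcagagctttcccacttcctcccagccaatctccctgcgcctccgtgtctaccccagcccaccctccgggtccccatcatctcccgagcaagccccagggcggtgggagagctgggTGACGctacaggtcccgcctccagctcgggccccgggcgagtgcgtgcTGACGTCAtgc

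The window of Isl2 alone held the full palindrome TGACGTCA, which contains the core on both strands and was in 1.79% of all windows. It lay at -11 to -4 from the RefSeq start, which lies inside the GENCODE span of Isl2 given above. The homeodomain core TAATTA was in 0 of the 8 windows (5.29% of all), its variant TAATTG in that of Mnx1 (8.0% of all), and the E-box CANNTG in 7 of 8 (72.3% of all). TTCAGCACC, one part of the neuronal silencer element RE1, was in 0 of 8 (0.371% of all). These are matches of letters in short windows, not binding.

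The libraries held 19701722 to 30138257 counted reads (median 26658755), so that 3 counts in the smallest corresponded to 0.152 CPM, the count scaled to library size, a floor that covers counting error only. Libraries from the same group differed by more than sampling noise, with a chi-square per gene of 2.74 or more in all 48 pairs. A score of 10 caudal Hox genes, taken here as a marker of the level of the cord, differed between libraries. At 155 days this score, the mean of their log2(CPM + 1), ranged from 1.81 to 3.07 in WT untreated mice. In G93A untreated mice of that age it ranged from 0.353 to 1.85. Of the WT and G93A mice given OKN-007, the ranges at that age were 2.60 to 2.95 and 0.772 to 2.18. Whether the score followed the dissected level or the cell content of the tissue was not tested. Genes of Schwann cells, which mark nerve root, summed to 1124 CPM in 1 WT untreated mouse and to 212 CPM in 1 G93A untreated mouse, both at 90 days, against a median of 3.16 CPM over the 32 libraries, and these mice were not the ones that stood apart for the 8 genes at that age. P-values measure the spread between these mice, and in bulk tissue fewer cells of a type and less RNA per cell cannot be told apart.

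All 8 genes were detected in every mouse, from a lowest count of 17 reads (Isl2) to a highest of 4667 reads (Ache). Levels between genes were compared as CPM per kilobase of exon. In WT untreated mice at 155 days, Ache was highest at 33.2 ± 1.44 (SD, n = 4), followed by Slc18a3 at 13.1 ± 1.23, Slc5a7 at 10.4 ± 2.86, Prima1 at 8.59 ± 1.06 and Chat at 6.35 ± 0.656. In this order Slc18a3 and Slc5a7, Slc5a7 and Prima1, and Prima1 and Chat overlapped with their neighbour. The transcription factors were lower, with Mnx1 at 2.89 ± 0.411, Isl2 at 1.35 ± 0.272 and Isl1 at 0.634 ± 0.105 CPM per kilobase. Among 19739 genes ranked by their median over 32 mice on this scale, Ache stood at percentile 91.6, Prima1 at 73.7, Slc18a3 at 73.3, Chat at 70.1, Slc5a7 at 66.1, Mnx1 at 43.7, Isl2 at 29.9 and Isl1 at 27.

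**Figure D1:**
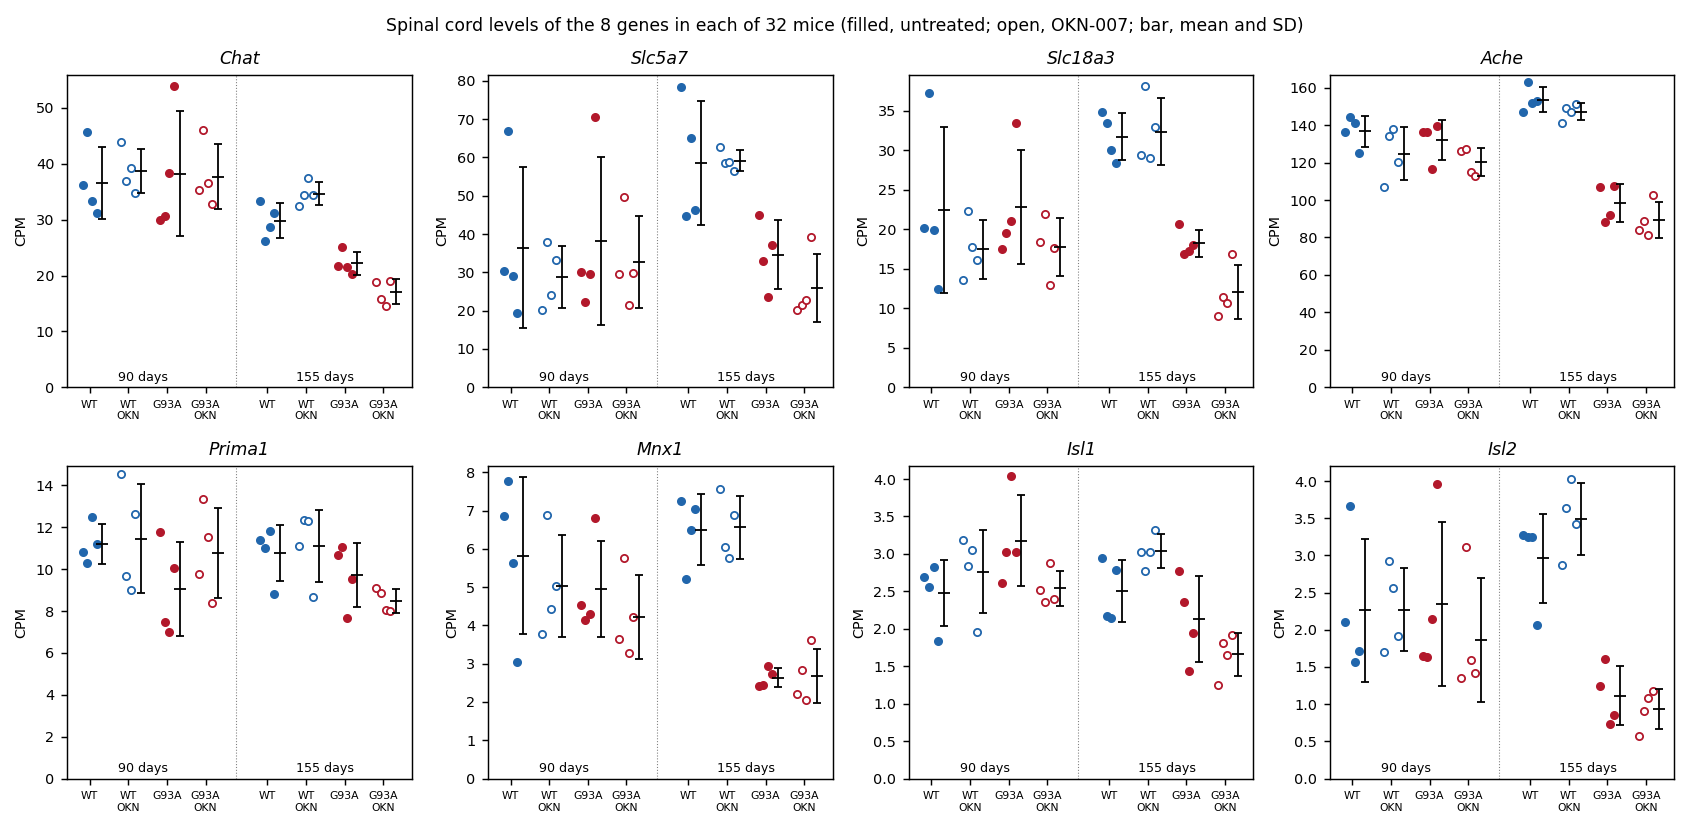
Level of each of the 8 genes in CPM (linear axis from 0) in each of 32 mice, by group along the horizontal axis, with 90 days on the left and 155 days on the right of each panel. Blue points are WT and red points G93A mice, filled points untreated and open points OKN-007, and black marks give mean and SD of 4 mice. Mnx1 in G93A mice at 155 days lies between 2.06 and 3.62 CPM, below all WT mice of that age (5.21 to 7.56 CPM).

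The first comparison asks how the motor neuron genes stood in G93A mice late in disease. At 155 days, 6 of the 8 genes were lower in untreated G93A than in untreated WT mice and none was higher (edgeR's quasi-likelihood test, adjusted p under 0.05 over 18675 genes, where 18.2% of genes were called lower). The median log2 fold change of the 8 was -0.68, against 0.0002 over all genes tested. The 2 motor neuron factors Mnx1 and Isl2 were furthest below WT, at 41.0% and 38.0% of its level. Chat, Slc5a7, Slc18a3 and Ache stood at 58.1% to 75.0% of WT. Between genotypes, a fall means a lower level than in WT mice of that age, not a loss over time. Mean Slc5a7 at 90 and 155 days was 38.1 and 34.6 CPM in untreated G93A and 36.4 and 58.6 CPM in untreated WT mice. Mean Slc18a3 was 22.9 and 18.2 CPM in these G93A and 22.4 and 31.7 CPM in these WT mice. Mean Chat was 38.2 and 22.2 CPM in these G93A and 36.6 and 29.8 CPM in these WT mice.

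Of the synthesis and storage genes, Slc18a3 stood at 34.9, 33.4, 30.1 and 28.4 CPM in the WT mice and at 20.7, 16.8, 17.3 and 18.0 CPM in the G93A mice. The groups did not overlap, and the vesicular transporter fell by 0.78 on the log2 scale (SE 0.14, adjusted p = 0.000257). Chat stood at 33.3, 26.2, 28.8 and 31.1 CPM in WT and at 21.7, 25.2, 21.6 and 20.3 CPM in G93A mice. These too did not overlap, although the enzyme fell by only 0.41 (SE 0.099, adjusted p = 0.0025). The choline transporter Slc5a7 was the most variable of the 3, at 78.5, 44.6, 65.1 and 46.3 CPM in WT and 45, 32.9, 23.5 and 37.2 CPM in G93A mice. The highest G93A mouse lay above the lowest WT mouse, and the fall was 0.74 (SE 0.21, adjusted p = 0.00793).

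Of the breakdown genes, Ache stood at 147, 163, 152 and 153 CPM in WT and at 107, 88.1, 91.8 and 108 CPM in G93A mice. The acetylcholinesterase groups were far apart relative to their spread, with a fall of 0.62 (SE 0.082, adjusted p = 7.04e-06). Prima1, its membrane anchor, stood at 11.4, 11, 11.8 and 8.82 CPM in WT and at 10.7, 11.1, 7.67 and 9.52 CPM in G93A mice. The values overlapped, and the log2 fold change of -0.13 (95% interval -0.41 to 0.15, adjusted p = 0.474) was not called.

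Of the transcription factors, Mnx1 stood at 7.26, 5.21, 6.49 and 7.05 CPM in WT and at 2.42, 2.44, 2.95 and 2.74 CPM in G93A mice. Every G93A mouse was below every WT mouse, with a log2 fold change of -1.29 (SE 0.17, adjusted p = 7.67e-06). Isl2 stood at 3.28, 3.25, 3.25 and 2.07 CPM in WT and at 1.25, 1.61, 0.738 and 0.859 CPM in G93A mice. One WT mouse was well below the other 3, but still above all G93A mice (log2 fold change -1.40, SE 0.25, adjusted p = 0.000231). Its relative Isl1 stood at 2.94, 2.17, 2.14 and 2.79 CPM in WT and at 2.77, 2.36, 1.44 and 1.95 CPM in G93A mice, which overlap. For Isl1 the log2 fold change was -0.23 (95% interval -0.64 to 0.19, adjusted p = 0.39). In all, 5 of the 8 genes had groups that did not overlap, all lower in G93A mice, as 15.3% of the genes tested did.

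These falls stood beside a fall of general neuron genes and a lower caudal Hox score. All 8 general neuron genes were lower in the same comparison (median log2 fold change -0.54), and the summed level of this list ran from 5017 to 5712 CPM in WT and from 3147 to 4091 CPM in G93A mice. With library size replaced by the counts of those neuron genes, the median of all genes moved to 0.59. On that scale 0.744% of genes were called lower and 68.3% higher. Mnx1 (-0.70, adjusted p = 0.0023) and Isl2 (-0.80, adjusted p = 0.00964) remained lower. Prima1 was called higher (0.46, adjusted p = 0.019), though below the median of all genes. Chat and Isl1 turned to 0.19 (adjusted p = 0.259) and 0.35 (adjusted p = 0.133). Slc5a7 (-0.16), Slc18a3 (-0.20) and Ache (-0.05) were no longer called on that scale. When the main fit also held the caudal Hox score, the same 6 genes were lower (9.59% of genes were called lower), with log2 fold changes between -0.57 (Ache) and -1.84 (Isl2). Where neuron scaling and the Hox score were used together, Slc5a7 (-0.52, adjusted p = 0.0309) and Isl2 (-1.27, adjusted p = 0.00656) were lower, and Mnx1 was at -0.56 (adjusted p = 0.0696). In that fit 0.68% of genes were called lower and 52.3% higher. The score itself ran from 1.81 to 3.07 in the WT and from 0.353 to 1.85 in the G93A mice compared. With ranges so nearly apart, neither fit that holds the score can separate genotype from the score.

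In mice given OKN-007, G93A mice at 155 days were lower than WT mice for all 8 genes (18.2% of genes were called lower in this comparison), with a median log2 fold change of -1.07 against 0.018 over all genes. Chat stood at 32.4, 34.5, 37.4 and 34.4 CPM in WT and at 18.8, 15.9, 14.6 and 19.1 CPM in G93A mice, a fall of 0.99 (SE 0.10, adjusted p = 2.25e-07). Slc18a3 stood at 29.4, 38.1, 29.0 and 32.9 CPM in WT and at 9.05, 11.4, 10.7 and 16.9 CPM in G93A mice, a fall of 1.40 (SE 0.15, adjusted p = 3.33e-07). Slc5a7 stood at 62.8, 58.6, 58.7 and 56.4 CPM in WT and at 20.2, 21.4, 22.8 and 39.1 CPM in G93A mice, a fall of 1.16 (SE 0.21, adjusted p = 0.000217). For all 3 synthesis and storage genes the groups were apart, although 1 G93A mouse was nearer to WT than the others for Slc18a3 and Slc5a7.

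Ache stood at 141, 149, 147 and 152 CPM in WT and at 84.1, 88.6, 81.3 and 103 CPM in G93A mice given OKN-007 (log2 fold change -0.69, adjusted p = 1.8e-06). Mnx1 stood at 7.56, 6.04, 5.75 and 6.89 CPM in WT and at 2.20, 2.83, 2.06 and 3.62 CPM in G93A mice (-1.26, adjusted p = 7.56e-06). Isl2 stood at 2.87, 3.63, 4.03 and 3.43 CPM in WT and at 0.576, 0.908, 1.08 and 1.18 CPM in G93A mice (-1.87, adjusted p = 9.03e-06). Isl2 had the largest fall of the 8 in both treatment arms. Isl1, which had overlapped in untreated mice, stood here at 3.02, 2.77, 3.02 and 3.32 CPM in WT and at 1.25, 1.82, 1.65 and 1.91 CPM in G93A mice, without overlap (-0.84, SE 0.20, adjusted p = 0.00226). Prima1 overlapped and was the weakest call at -0.35 (adjusted p = 0.0421), and leaving out any of 5 of the 16 mice, WT OKN-007 replicates 5, 6 and 7 or G93A OKN-007 replicates 15 and 16, ended it (highest adjusted p 0.128). The groups of 7 genes did not overlap, as those of 21.9% of genes lower in G93A mice did not. Averaged over treatments, all 8 genes were lower (25.8% of genes were called lower), with Prima1 again the weakest (-0.24, adjusted p = 0.0386), a call that leaving out any of 10 of the 16 mice ended (highest adjusted p 0.0836). With neuron scaling of the mice given OKN-007, Slc5a7 (-0.52), Slc18a3 (-0.75), Mnx1 (-0.60) and Isl2 (-1.22) remained lower. Prima1 turned to 0.33 (adjusted p = 0.0795), and the median of all genes was 0.69, with 0.691% of genes called lower and 74.5% higher. On that scale the average over treatments left the same 4 genes lower and called Prima1 higher (0.40, adjusted p = 0.00451). The median of all genes was 0.64, with 1.16% of genes called lower and 79.3% higher.

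**Figure D2:**
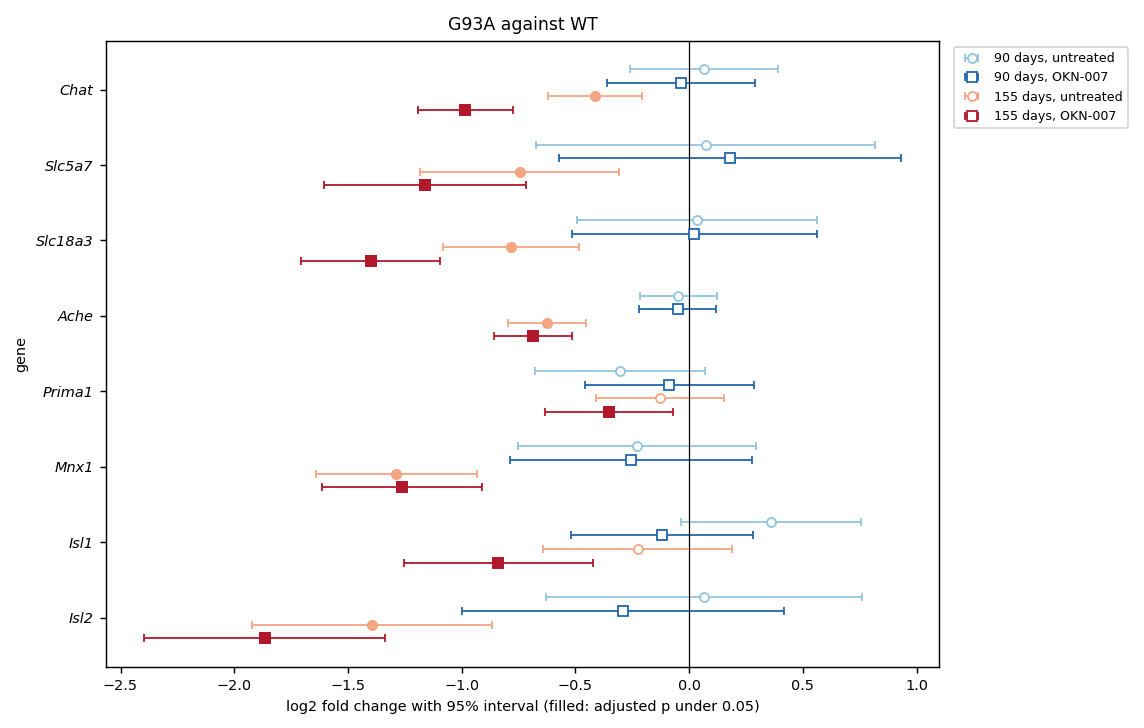
Log2 fold change of G93A against WT mice with its 95% interval for each gene, at 90 and 155 days, untreated and with OKN-007. Filled symbols have an adjusted p under 0.05, open symbols do not, and the black line marks 0. Symbols at 90 days lie around 0, from -0.30 to 0.36, while those at 155 days lie between -0.13 and -1.87.

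At 90 days none of the 8 genes was called between G93A and WT mice. Among untreated mice, edgeR's quasi-likelihood test called 0 of 8, and 0 of 8 had an unadjusted p under 0.05 (0% of 18899 genes were called and 5.96% had an unadjusted p under 0.05). DESeq2 and edgeR's likelihood ratio test also called 0 of 8. Log2 fold changes ran from -0.30 (Prima1, 95% interval -0.68 to 0.07) to 0.36 (Isl1, -0.04 to 0.75). The intervals were narrow for Ache (-0.22 to 0.12) and Chat (-0.26 to 0.39) and wide for Slc5a7 (-0.67 to 0.82) and Isl2 (-0.63 to 0.76). Mice given OKN-007 showed 0 calls as well, with 0 of 8 at an unadjusted p under 0.05 (3.95% of genes), and so did the average over treatments, where 0.0265% of genes were called and 6.61% had an unadjusted p under 0.05 (0 of 8).

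Single mice stood apart at 90 days. Slc5a7 stood at 30.4, 67.0, 28.9 and 19.5 CPM in WT untreated and at 30.2, 22.2, 29.5 and 70.5 CPM in G93A untreated mice. WT replicate 2 and G93A replicate 12 were also the highest untreated mice of that age for Slc18a3 (37.3 and 33.4 CPM), Chat (45.8 and 54.0 CPM) and Isl2 (3.67 and 3.96 CPM). The log2 fold change of Slc5a7 ranged from -0.40 to 0.53 as each mouse was left out in turn.

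The change of the G93A effect between the ages was tested over all 32 mice. In untreated mice it was more negative at 155 than at 90 days for 3 of the 8 genes (8.34% of 19829 genes were called lower): Ache (-0.59, adjusted p = 0.000425), Mnx1 (-1.07, adjusted p = 0.0164) and Isl2 (-1.47, adjusted p = 0.0159). Chat (-0.49, adjusted p = 0.0783), Slc18a3 (-0.83, adjusted p = 0.0625) and Slc5a7 (-0.83, adjusted p = 0.203) missed the threshold with wide errors. This count depended on single mice, being 1 without G93A untreated replicate 12 of 90 days, 5 without G93A untreated replicate 9 of either age and 6 without WT untreated replicate 2 of 90 days. Neuron scaling, which moved the median of all genes to 0.55, ended all 3 calls and called Prima1 alone, as higher (0.74, adjusted p = 0.0344). On that scale 48% of genes were called higher and 0.57% lower. With the Hox score added to neuron scaling, Isl2 alone was called lower (-1.16, adjusted p = 0.0249), as 0.646% of genes were. In mice given OKN-007, 7 of 8 genes were called, all but Prima1 (9.97% of genes lower), with differences from -0.67 (Ache) to -1.61 (Isl2). The call of Isl1 (adjusted p = 0.0418) was lost without any of 10 of the 32 mice (highest adjusted p 0.101) and that of Slc5a7 without any of 5 (highest adjusted p 0.0955). Neuron scaling left Slc18a3 (-0.80) and Isl2 (-0.96) lower, with 0.313% of genes called lower and 59.4% higher. Averaged over treatments, the same 7 genes were called (17.8% of genes lower), from -0.63 (Ache) to -1.54 (Isl2), while Prima1 was at -0.07 (95% interval -0.40 to 0.26). With neuron scaling, 3 of these were lower (Slc18a3, Mnx1 and Isl2) and Prima1 was higher (0.58, adjusted p = 0.0126). On that scale 0.792% of genes were called lower and 66.6% higher, with a median of 0.62 over all genes.

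Within untreated G93A mice, 5 of the 8 genes were lower at 155 than at 90 days (12.8% of genes lower). Chat fell by 0.79 (adjusted p = 6.38e-05), Ache by 0.42, Mnx1 by 0.91, Isl1 by 0.58 and Isl2 by 1.09, while Slc5a7 (-0.14) and Slc18a3 (-0.33) were not called. Neuron scaling left 3 of the 5 lower (Chat, Mnx1 and Isl2), with 2.23% of genes called lower and 42.1% higher. Within untreated WT mice 0 of the 8 genes were called by edgeR's quasi-likelihood test, where 24.9% of genes were, and 3 of 8 had an unadjusted p under 0.05, as 37% of genes did. These were Chat (-0.29), Slc5a7 (0.69) and Slc18a3 (0.50), with adjusted p from 0.103 to 0.127. DESeq2 and the likelihood ratio test also called 0. Without WT untreated replicate 2 of 90 days, Slc5a7 and Slc18a3 were called higher at 155 days. The ages were not separated from the caudal Hox score. It averaged 1.88 in WT untreated mice at 90 days and 2.41 at 155 days, and 1.89 and 1.07 in G93A untreated mice. With the score as a covariate the same 5 genes were lower with age in G93A mice (10.2% of genes lower). In WT mice Slc5a7 was called higher (0.84, adjusted p = 0.0389), as 16.4% of genes were.

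OKN-007 was then compared with no treatment. At 155 days in G93A mice, edgeR's quasi-likelihood test called 0 of 8 genes (0% of 18675), with 2 of 8 at an unadjusted p under 0.05 (4.04% of genes). These were Chat and Slc18a3, both lower with OKN-007. Chat was 20.3 to 25.2 CPM without and 14.6 to 19.1 CPM with OKN-007, which did not overlap (1.23% of genes were lower without overlap), and its log2 fold change was -0.37 (SE 0.10, adjusted p = 1). Slc18a3 was 16.8 to 20.7 CPM without and 9.05 to 16.9 CPM with OKN-007, which overlap by a single mouse, at -0.60 (SE 0.15, adjusted p = 1). With no filter on low counts Slc18a3 passed (adjusted p = 0.0175), and DESeq2 (adjusted p = 0.547) and the likelihood ratio test (adjusted p = 0.323) did not call it. Of 8 general neuron genes, 2 were also lower with OKN-007 at an unadjusted p under 0.05 and 0 higher. Of 20 other genes known from motor neurons, 5 were lower and 0 higher by that measure. Summed general neuron genes averaged 3560 CPM without and 3255 CPM with OKN-007. The part of neuron content in the lower Chat and Slc18a3 was not tested.

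None of the 8 genes was called higher with OKN-007 in G93A mice at 155 days. The 95% intervals were -0.35 to 0.39 for Mnx1, -0.81 to 0.33 for Isl2, -0.31 to 0.03 for Ache, -0.47 to 0.10 for Prima1, -0.78 to 0.07 for Isl1 and -0.86 to 0.02 for Slc5a7. In WT mice at that age, 0 of 8 were called (0% of genes) and 0 had an unadjusted p under 0.05 (2.94% of genes), with Chat the nearest at 0.20 (95% interval -0.00 to 0.41). The interaction of genotype and treatment at 155 days called 0 of 8 (0% of genes), with 3 at an unadjusted p under 0.05 (2.34% of genes): Chat (-0.57, 95% interval -0.86 to -0.28), Slc18a3 (-0.62, -1.04 to -0.19) and Isl1 (-0.61, -1.20 to -0.02), each with an adjusted p of 1. At 90 days 0 of 8 genes were called for OKN-007 in G93A mice (5.56% of genes at an unadjusted p under 0.05), in WT mice (4.07%) or for the interaction (2.81%), and 0 of 8 had an unadjusted p under 0.05 in each. DESeq2 and the likelihood ratio test called 0 of 8 in each comparison of treatment and in each comparison of genotype at 90 days.

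**Figure D3:**
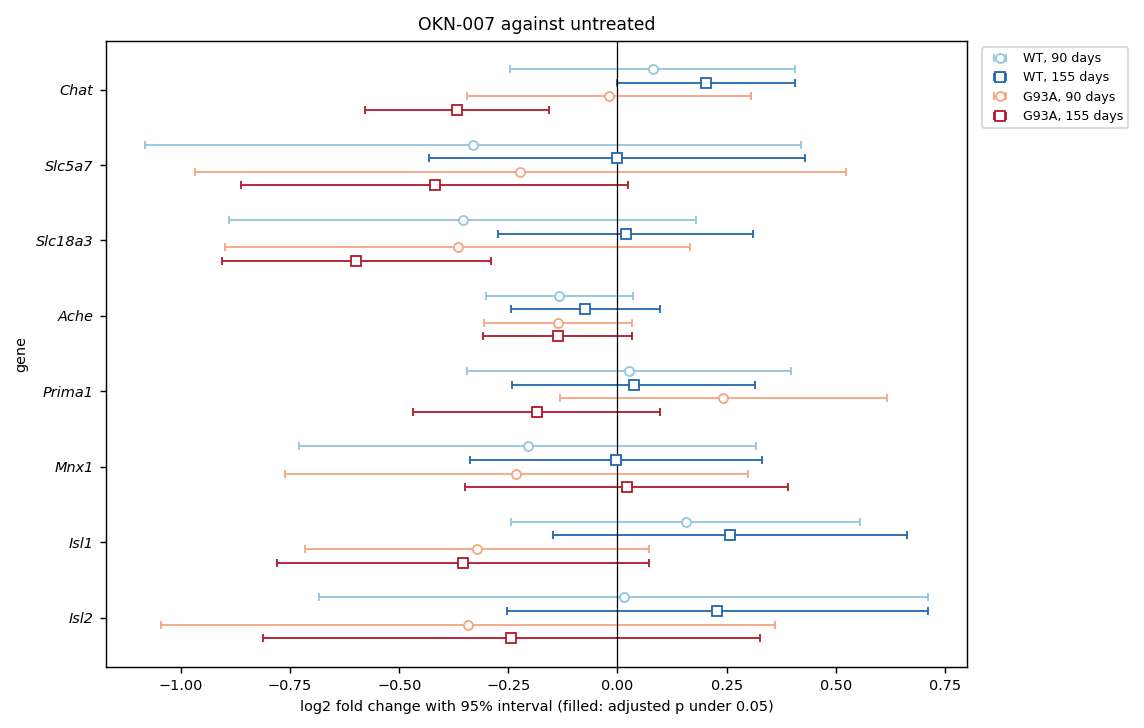
Log2 fold change of OKN-007 against untreated mice with its 95% interval for each gene, in WT and G93A mice at both ages. No symbol is filled, since no adjusted p was under 0.05, and the intervals of Chat (-0.58 to -0.16) and Slc18a3 (-0.91 to -0.29) in G93A mice at 155 days lie below 0.

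Other genes of cholinergic transmission changed in both directions. Of 21 listed receptors, choline transporters and modulators, 10 were lower and 2 higher in untreated G93A mice at 155 days, where 18.2% of all genes were lower and 21.3% higher, with a median log2 fold change of -0.60. The muscarinic receptor Chrm2 (-1.09, adjusted p = 2.29e-05) and the nicotinic receptor modulator Lypd6 (-0.69, adjusted p = 7.7e-05) fell. The 2 that rose were the choline transporter-like genes Slc44a1 (0.60, adjusted p = 1.72e-06) and Slc44a2 (1.22, adjusted p = 1.91e-07), which are not restricted to cholinergic cells. Of 20 other genes known from motor neurons, 14 were lower and 1 higher, with a median of -0.59. The fast motor neuron markers Chodl (-2.60, SE 0.19) and Mmp9 (-1.61, SE 0.14) and the neurofilaments Nefh (-1.23, SE 0.14) and Nefl (-1.10, SE 0.14) were lower. All 4 of these passed with an adjusted p of 5.59e-06 or less.

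Markers of other neurons of the cord were measured as well. All 5 genes of excitatory and inhibitory interneurons were lower with the G93A genotype at 155 days without treatment, where 18.2% of all genes were. Their median log2 fold change was -0.70, and their summed level ran from 915 to 1062 CPM in WT and from 468 to 778 CPM in G93A mice. The part of these cells, or of preganglionic and V0c neurons, in the falls of Chat, Slc5a7, Slc18a3 and Ache was not tested.

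Microglia and astrocyte genes moved the other way. All 6 microglia genes (median 3.12) and all 4 astrocyte genes (median 1.11) rose, in a comparison where 21.3% of genes did, with microglia sums of 134 to 172 CPM in WT and 720 to 1353 CPM in G93A mice, and astrocyte sums of 2709 to 3258 CPM and 11466 to 14828 CPM. Of the caudal Hox genes 5 of 9 tested were lower (median -1.48). Of 4 sensory ganglion genes tested, Avil rose (2.92) and Pou4f1 fell (-0.89), the nociceptor channel Scn10a (named, like Ckm, after its values were seen) was at most 5 counts in any mouse of these groups, and the summed list was 18.5 to 23.3 CPM in WT and 11.4 to 15.2 CPM in G93A mice. Of 4 skeletal muscle genes tested, Tnni2 rose (3.42) while Acta1 and Ckm were at most 12 and 5 counts, and the sums were 1.94 to 2.99 CPM and 4.43 to 7.78 CPM. Of 3 Schwann cell genes tested 0 were called (none at an unadjusted p under 0.05, median -0.06), with sums of 1.94 to 6.16 CPM in WT and 2.73 to 3.07 CPM in G93A mice.

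Ratios of counts within a library do not depend on scaling. The 3 ratios below were chosen after the levels were seen, so they are given as a description. Exact permutation tests between groups (15 tests) gave no adjusted p under 0.05, the lowest being 0.0536. With 4 mice in each group there are 70 splits, and the smallest unadjusted p such a test can give is 0.0286. After adjustment even groups fully apart could hardly pass. Isl1 to Isl2 was 0.898, 0.667, 0.659 and 1.35 in untreated WT mice at 155 days and 2.22, 1.46, 1.94 and 2.27 in untreated G93A mice. The groups did not overlap, and Isl1 was 2.28 times more abundant relative to Isl2 in G93A mice, which restates the larger fall of Isl2. With OKN-007 the ratio was 0.884 ± 0.152 in WT and 1.83 ± 0.306 in G93A mice (SD, n = 4), a 2.07-fold difference without overlap. At 90 days the 4 group means lay between 1.21 and 1.53 with SDs of 0.413 to 0.521.

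The ratio of Slc18a3 to Chat, which share a locus, was 0.556, 0.815, 0.596 and 0.399 in untreated WT mice at 90 days and 1.05, 1.28, 1.05 and 0.912 at 155 days. The groups did not overlap, with a 1.86-fold higher ratio at 155 days. In WT mice given OKN-007 the ratio was 2.09 times higher and in untreated G93A mice 1.38 times higher at the later age, again without overlap. Between genotypes at 155 days the ratio was 0.828 ± 0.123 in untreated G93A and 1.07 ± 0.151 in untreated WT mice, which overlap. The ratio of Ache to Chat was 3.79 ± 0.464 at 90 days and 5.21 ± 0.768 at 155 days in untreated WT mice, without overlap, and 3.66 ± 0.996 and 4.50 ± 0.796 in untreated G93A mice, which overlap. At 155 days it was 0.859 times the WT ratio in untreated G93A mice, with overlap, and 1.23 times in those given OKN-007, without overlap.

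**Figure D4:**
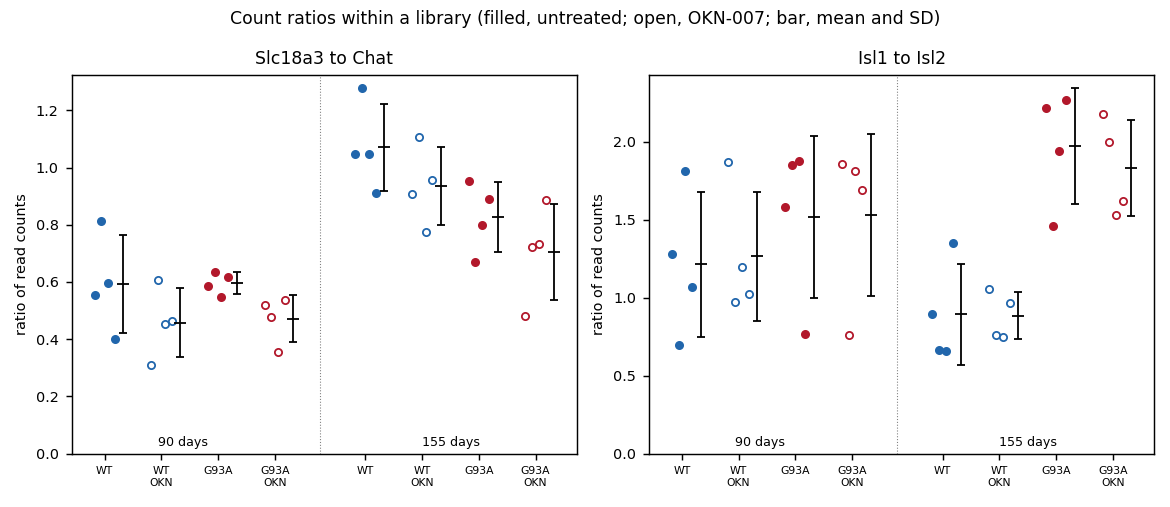
Ratio of read counts within each library for Slc18a3 to Chat (left) and Isl1 to Isl2 (right), by group and age on linear axes from 0, with colours and symbols as in the plot of levels by mouse and mean and SD in black. Isl1 to Isl2 at 155 days is 0.659 to 1.35 in WT untreated and 1.46 to 2.27 in G93A untreated mice.

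Variation between mice of one group was compared by correlating deviations from group means over 32 mice (28 pairs of genes, permutation within groups, two-sided). In 13 pairs Pearson's r passed an adjusted p of 0.05, all positive, and in 6 pairs Spearman's rho did. Pairs of other genes were not tested, so these counts have no background share. The pair with the highest r was Slc5a7 and Slc18a3 (r = 0.86, permutation p adjusted 0.00056, rho = 0.71, permutation p adjusted 0.00353, and r = 0.78 without the 2 mice farthest from the median). Next were Slc18a3 with Mnx1 (r = 0.79, rho = 0.61), Slc5a7 with Mnx1 (r = 0.78, rho = 0.69), Slc5a7 with Isl2 (r = 0.77, rho = 0.68) and Slc18a3 with Isl2 (r = 0.73, rho = 0.66). Chat and Slc18a3, the neighbours in one locus, correlated less (r = 0.56, permutation p adjusted 0.0426, rho = 0.35, permutation p adjusted 0.196), and r was 0.32 without the 2 farthest mice, on which the relation rests. Prima1 and Isl1 passed in 0 of their pairs, with r from -0.13 to 0.29. Among the 16 WT mice alone, 0 of the 28 pairs passed, although r was 0.84 for Slc5a7 with Slc18a3, 0.80 for Slc5a7 with Mnx1 and 0.78 for Slc18a3 with Isl2 (permutation p adjusted 0.0846 for each) and 0.75 for Slc18a3 with Mnx1 (permutation p adjusted 0.162).

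Mice with more RNA of general neuron genes also had more of 5 of the 8. Other genes were not tested this way, so the count has no share over all genes beside it. The summed general neuron genes correlated with Slc5a7 (r = 0.82, rho = 0.85), Slc18a3 (r = 0.77, rho = 0.78), Ache (r = 0.72, rho = 0.67), Mnx1 (r = 0.64, rho = 0.59) and Isl2 (r = 0.60, rho = 0.63), each with an adjusted permutation p of 0.0065 or less over 16 relations. Chat (r = 0.25, rho = 0.19), Isl1 (r = 0.16) and Prima1 (r = -0.12) did not pass. The caudal Hox score was related to Prima1 (r = -0.48, permutation p adjusted 0.0231, rho = -0.51, permutation p adjusted 0.0126, r = -0.53 without the 2 farthest mice), and to no other member past an adjusted p of 0.05. These 16 relations were added after the levels had been seen.

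**Figure D5:**
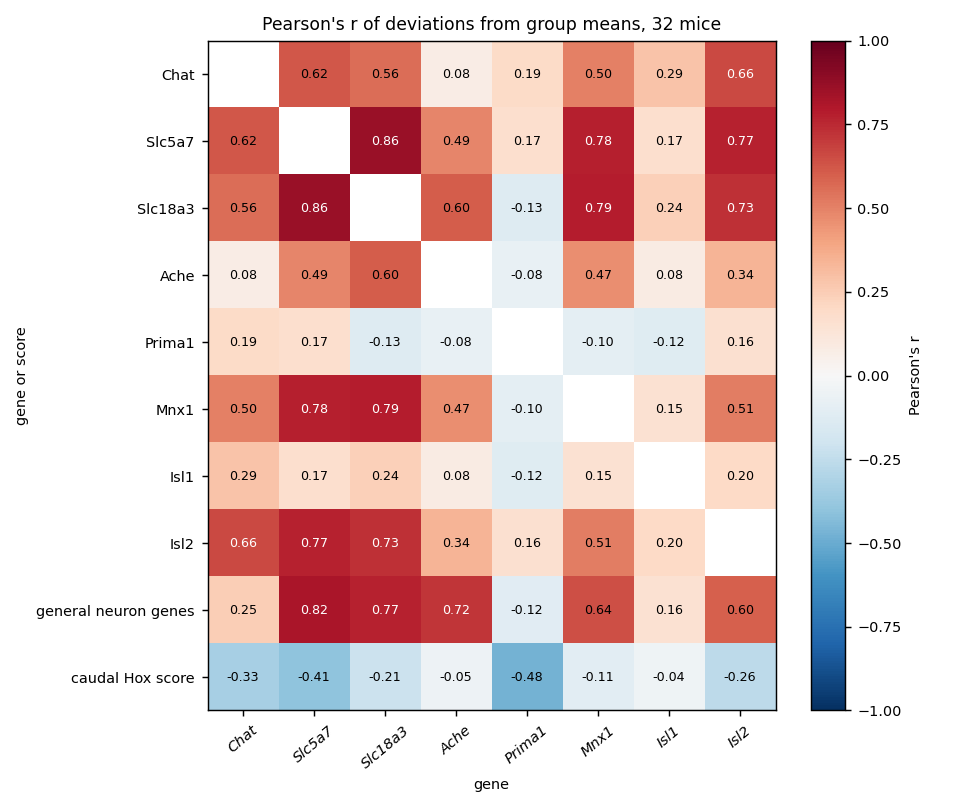
Pearson's r between deviations from group means over 32 mice, for each pair of the 8 genes (upper 8 rows) and for each gene with the summed general neuron genes and the caudal Hox score (lower 2 rows), with red for positive and blue for negative values and r written in each cell. Slc5a7, Slc18a3, Mnx1 and Isl2 form the block of high values, and among the 8 genes the values of Prima1 and Isl1 lie between -0.13 and 0.29.

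The pattern most like that of the synthesis and storage genes was sought among 19826 genes as Pearson's r with the mean deviation of Chat, Slc5a7 and Slc18a3 over 32 mice. The 5 highest were Arhgap36 (r = 0.96), Acly (r = 0.93), Dffa (r = 0.92), Kcnj14 (r = 0.92) and Nefl (r = 0.91). In that order Spearman's rho was 0.91, 0.89, 0.85, 0.78 and 0.84. Acly makes the acetyl-CoA of the cytosol, Kcnj14 is an inward rectifier potassium channel, Nefl is the light neurofilament chain, and Dffa is the inhibitor of a DNase of apoptosis. All 5 were also lower in untreated G93A mice at 155 days, where 18.2% of genes were called lower. Their log2 fold changes were -0.44 (Arhgap36), -0.62 (Acly), -0.73 (Dffa), -1.27 (Kcnj14) and -1.10 (Nefl). Of the other members, Isl2 (r = 0.81) ranked 142 and Mnx1 (r = 0.80) ranked 190 by this measure, while Ache (r = 0.49) ranked 3332, Isl1 (r = 0.24) 6350 and Prima1 (r = 0.08) 8498.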

How the data were processed

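Spinal cord RNA of 32 mice was sequenced from stranded, poly(A)-selected libraries. The authors deposited raw read counts per gene in 1 table. The methods of the study name Trimmomatic, STAR, HTSeq, GRCm38 and GENCODE M10, whereas the submitters' processing notes list STAR, featureCounts, FastQC and edgeR with GRCm39, mm39 and hg38, so counter and build are uncertain. Gene IDs were paired with symbols and GRCm38 coordinates from GENCODE M21 (41203 of 42524 paired, 1321 not). Promoter windows came from RefSeq.

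Mice were grouped by the labels. Genes with low counts were removed with filterByExpr, TMM factors were applied, and edgeR 4.0.16 (R 4.3.3) quasi-likelihood fits were made over the 16 mice of an age in 4 groups, or over 32 mice in 8 groups for contrasts between ages. Benjamini-Hochberg adjustment of p ran over all genes tested, with a threshold of 0.05. CPM used TMM factors over 32 mice. Relations used 100000 permutations within groups on log2(CPM + 1). The fits were tested on simulated data. Alternatives covered scaling (RLE, upper quartile, general neuron genes), count filters, DESeq2 1.42.0, edgeR's likelihood ratio test, a caudal Hox covariate, a replicate block and leaving out each mouse.

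The 8 genes, the other lists and the tests were chosen with earlier results of these data known. From each other list, up to 4 genes with the smallest p for genotype at 155 days without treatment could be named. One marker gene of another cell type is not reported here.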

Additional observations from a re-analysis of the deposited data

Results flagged for a closer look

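Single mice stood apart from the other 3 of their group in 6 of 64 combinations of gene and group, where chance gives about 3.2 by the test of gaps used (Dixon's). Among G93A untreated mice at 90 days, replicate 12 was high for Slc5a7 (70.5 CPM) and Mnx1 (6.81 CPM), and replicate 11 was low for Ache (116 CPM). Replicate 16 of the G93A mice given OKN-007 was high for Slc5a7 at 155 days (39.1 CPM), and replicate 14 of the same treatment was high for Isl2 at 90 days (3.11 CPM). Replicate 4 of the untreated WT mice at 155 days was low for Isl2 (2.07 CPM).

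The effect of G93A differed between the ages by a test of the difference itself (edgeR's quasi-likelihood test over 32 mice, adjusted p under 0.05). In untreated mice the log2 difference was -0.59 for Ache, -1.07 for Mnx1 and -1.47 for Isl2. In mice given OKN-007 it was -0.98 for Chat, -1.37 for Slc5a7, -1.45 for Slc18a3, -0.67 for Ache, -1.04 for Mnx1, -0.75 for Isl1 and -1.61 for Isl2.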

How the results depend on the processing

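Of 216 counts of genes called under another setting, 187 stayed within 1.5 times the reported count, and of 352 counts without 1 mouse 347 did. Of 104 log2 fold changes for genotype at 155 days without treatment, 87 kept direction and call, as did 128 of 128 without 1 mouse. The cause of the changes below was not tested.

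Scaled to general neuron genes, Chat (0.19), Prima1 (0.46) and Isl1 (0.35) turned positive in untreated mice at 155 days, as did Prima1 (0.13) and Isl1 (0.15) with the Hox covariate added. The number of genes called between G93A and WT at 155 days, 6 untreated, 8 with OKN-007 and 8 averaged, became 2, 4 and 3 with a log2 fold change of at least 1, 3, 4 and 5 under neuron scaling (Prima1 higher in the first and last), and 2, 4 and 4 with both. For OKN-007 in G93A mice at 155 days, 0 became 1 (Slc18a3) with no filter on low counts.

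For the change with age, the untreated count of 3 became 5 at an adjusted p under 0.10, 5 with upper quartile factors, 6 with the Hox covariate, 1 under neuron scaling (Prima1, higher, with all 3 lower calls lost) and 1 with both (Isl2, lower). With OKN-007, 7 became 4 with the log2 minimum, 2 under neuron scaling and 3 with both, and averaged, 7 became 4, 4 (Prima1 higher, 3 lower) and 3. Between ages, 0 in untreated WT mice became 1 lower with upper quartile factors, neuron scaling or both, and 1 higher with the Hox covariate (Slc5a7) or the replicate block (Slc18a3, 1). In untreated G93A mice 5 became 1 with the log2 minimum, 3 under neuron scaling and 3 with both. Of the relations, 13 became 0 in WT mice alone.

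Leaving out each mouse in turn gave 6 to 6 genes untreated, 7 to 8 with OKN-007 and 7 to 8 averaged at 155 days. It gave 1 to 6, 5 to 7 and 7 to 7 for the change with age, 0 to 2 and 4 to 5 between ages in WT and G93A mice, and 0 to 0 for each other comparison. Mice with the same number did not deviate together (16 pairs, r from -0.22 to 0.26, 3 over 0.1). No pairing by number was seen, although one that leaves little trace in expression would be missed. The replicate block moved no other count beyond 1.5 times. The lowest member, Isl2, had 17 reads in 1 mouse, which limits its precision.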
